A study of Mus musculus with 72 samples.

Results

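The genes of cytosolic sulfation were followed in mouse liver through the day, with and without gut microbes and with and without the liver clock gene Bmal1. Sulfation joins a sulfate group to hormones, bile acids and xenobiotics, which makes them more soluble and in most cases less active. The sulfate donor is PAPS, which PAPS synthases build from ATP and inorganic sulfate, and cytosolic sulfotransferases move its sulfate to the acceptor. In rodent liver several of these enzymes are known for a strong sex bias, and nuclear receptors act on many of their genes. The set comprised the cytosolic sulfotransferase genes Sult1a1, Sult1b1, Sult1c2, Sult1d1, Sult1e1, Sult2a8, Sult3a1 and Sult5a1 and the PAPS synthase gene Papss2. It was fixed by gene symbol, and 8 of the 9 listed genes, out of 55573 genes in the count table, reached a mean CPM (counts scaled to library size) of 0.5 over the 72 libraries and were analysed. Sult3a1, an amine sulfotransferase with female-biased expression, averaged 0.0306 CPM, with at most 5 reads in any of these male livers, and was set aside.

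RNA was sequenced from livers of male C57BL/6 mice (C57BL/6J background by the study's methods) in 4 groups of 18 libraries each, with 3 libraries at each of ZT2, ZT6, ZT10, ZT14, ZT18 and ZT22 (hours after lights on). All mice carried loxP-flanked Bmal1 alleles (Bmal1 fl/fl). WT mice had these alleles alone. LKO mice also carried Albumin-cre, a transgene that deletes Bmal1 in hepatocytes and may leave other liver cells with the gene. Each genotype was kept either under specific-pathogen-free (SPF) conditions or germ free (GF) in isolators, in a light/dark cycle with free access to autoclaved chow, and the mice were adults that had been housed singly before sampling. Nothing in the labels ties a library to a cage or litter, so the p-values below measure the spread between these libraries.

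Totals ranged from 17369927 to 22076113 counted reads. All 8 hepatocyte markers examined (Alb, Apoa1, Apob, Ttr, Cps1, Serpina1a, Fabp1 and Tat) were detected in every library. Arntl (Bmal1) was cyclic in WT mice, from 0.624 to 39.8 CPM in SPF WT and from 0.331 to 40.8 CPM in GF WT, and lay between 7.01 and 13.5 CPM in GF LKO mice (the counts per gene do not separate its deleted from its undeleted part). Npas2, a clock gene repressed by the product of a BMAL1 target, lay between 16.8 and 44.7 CPM in all 18 GF LKO libraries and at or below 12.9 CPM in all WT libraries. In 4 libraries Arntl or Npas2 departed from the other libraries of their group and time. The library labelled SPF LKO ZT14 replicate 2 held 0.220 CPM of Npas2 against 24.2 and 25.4 CPM in the other ZT14 libraries. The library labelled SPF LKO ZT18 replicate 1 held 1.81 CPM of Npas2 against 27.6 and 36.7 CPM. The library labelled SPF WT ZT14 replicate 3 held 2.12 CPM of Arntl against 15.9 and 19.4 CPM. For GF WT at ZT6, replicate 3 as labelled held 8.19 CPM of Arntl against 1.62 and 2.44 CPM. In the SPF WT library Npas2 stayed low, at 0.207 CPM against 0.0536 and 0.157 CPM. Npas2 was 0.115 CPM in the GF WT library, against 0.187 and 0.36 CPM. These libraries were kept under their labels, and test results of the 8 genes that changed without them are given both ways. The markers and other gene lists below were tested with all libraries only. The other calls of the 8 genes in the 4 pooled comparisons stayed on their side of the threshold without the libraries that stood apart.

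The genes Sult1b1 (thyroid hormones and small phenols), Sult1d1 (catecholamines and eicosanoids) and Sult1e1 (estrogens) stood next to each other on the minus strand of chromosome 5 (GRCm38, chr5:87513339-87591594), with no other protein-coding gene between them in 78.3 kb. Of these 3 neighbours, Sult1e1 changed far more than Sult1d1 and Sult1b1 in the groups compared. The 250 bases before a RefSeq start of each neighbour are shown, read 5′ to 3′ along the gene. Capitals mark AGGTCA or its reverse complement TGACCT, the half-site of many nuclear receptors. The windows lie at chr5:87591612-87591861 for Sult1e1, chr5:87569007-87569256 for Sult1d1 and chr5:87538196-87538445 for Sult1b1.
Sult1e1: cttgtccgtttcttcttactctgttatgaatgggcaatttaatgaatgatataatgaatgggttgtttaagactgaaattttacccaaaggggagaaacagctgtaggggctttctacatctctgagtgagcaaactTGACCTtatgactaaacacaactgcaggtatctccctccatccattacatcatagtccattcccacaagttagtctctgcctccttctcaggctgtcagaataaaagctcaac
Sult1d1: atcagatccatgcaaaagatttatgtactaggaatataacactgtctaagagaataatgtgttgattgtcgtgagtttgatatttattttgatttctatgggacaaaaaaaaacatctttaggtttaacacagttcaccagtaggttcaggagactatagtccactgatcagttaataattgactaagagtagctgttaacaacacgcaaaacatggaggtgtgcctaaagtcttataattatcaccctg
Sult1b1: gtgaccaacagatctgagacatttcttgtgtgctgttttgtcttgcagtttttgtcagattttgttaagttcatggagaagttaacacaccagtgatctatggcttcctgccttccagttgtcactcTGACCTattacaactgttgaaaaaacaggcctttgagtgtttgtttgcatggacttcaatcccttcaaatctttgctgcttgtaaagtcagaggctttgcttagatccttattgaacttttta
The half-site fell 113 bases upstream of the start in Sult1e1 and 123 bases upstream in Sult1b1, and the Sult1d1 window had none. Sult1b1 has another half-site just past this start and another RefSeq start, whose window (chr5:87536173-87536472) held none. Of 32851 mouse promoter windows of 300 bases (250 before to 50 after a start), 16.3% held AGGTCA on either strand. The half-site was not particular to the neighbours: a window of Sult2a8 and a window of Papss2 held it too. The other window of each of these genes held none, nor did the windows of Sult1a1, Sult1c2, Sult3a1 and Sult5a1. None of the 12 windows of the 9 listed genes held the clock E-box CACGTG, which 7.15% of all windows had, or a D-box (TTATGTAA, TTACATAA or TTACGTAA), which 1.06% had. A missing match says only that these letters are not in the window. The coding sequences of Sult1d1 and Sult1e1 were 64.6% identical, and no 50-base stretch of Sult1b1, Sult1d1, Sult1e1 or Papss2 transcripts occurred in another gene. For Sult1a1, 7.36% of such stretches were shared with Gm6939 or Sgf29, which leaves a small part of its reads uncertain.

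Per exonic length, the genes covered more than 3 orders of magnitude in SPF WT liver. Sult2a8, which sulfates bile acids, had the top level, at 507 ± 93.2 RPKM (CPM per kilobase of exon, mean ± SD, n = 18). Sult1a1, the main phenol sulfotransferase, followed at 208 ± 52.3 RPKM, Sult1d1 at 104 ± 35.4 RPKM and Papss2 at 67.06 ± 12.03 RPKM. Sult1b1 lay at 18.7 ± 5.54 RPKM, Sult1c2 at 2.56 ± 0.838 RPKM and Sult5a1 at 2.39 ± 0.985 RPKM, with Sult1e1 last at 0.332 ± 0.389 RPKM. The libraries of Sult2a8 and Sult1a1 did not overlap in level, nor did those of Papss2 and Sult1b1 or of Sult1b1 and Sult1c2, whereas the remaining neighbours in this order overlapped. In GF LKO liver Sult1e1 stood at 87.9 ± 45.6 RPKM, rank 4 of 8, above Papss2 at 56.6 ± 6.91 RPKM, although the range of Sult1e1 (19.2 to 204.3 RPKM) enclosed that of Papss2 (44.3 to 68.7 RPKM). Sult1a1 at 171 ± 30.7 RPKM and Sult1d1 at 158.6 ± 30.01 RPKM overlapped there almost wholly. Sult1e1 made up 0.0391% ± 0.0498 of the summed RPKM of the 7 sulfotransferases in SPF WT and 0.640% ± 0.811 in SPF LKO mice, against 0.182% ± 0.137 in GF WT and 8.115% ± 3.597 in GF LKO mice (mean ± SD, n = 18 each). Papss1, the other PAPS synthase, was far below Papss2 in each group, with means between 4.18 and 4.72 RPKM.

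**Figure D1:**
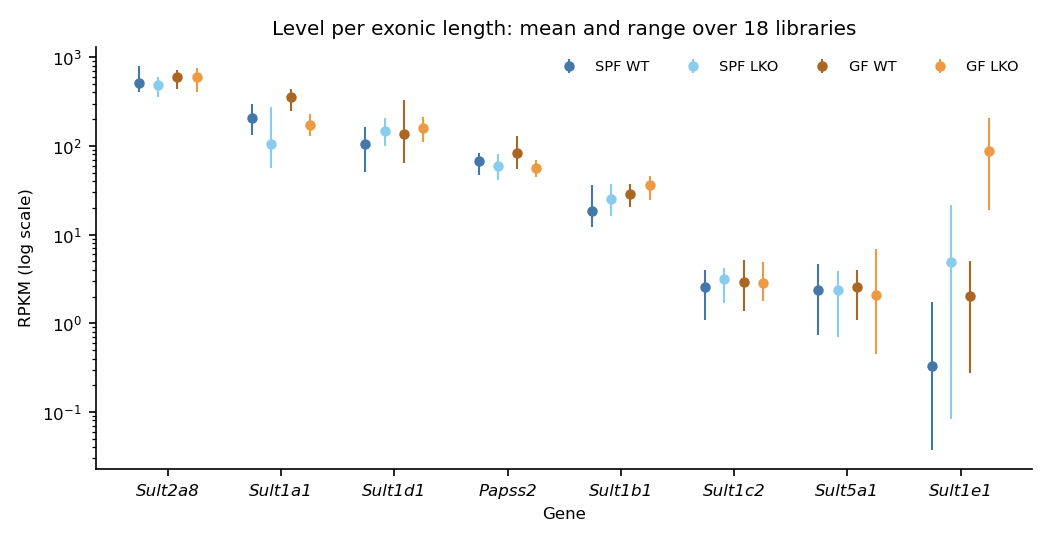
Level per exonic length (RPKM, log axis) of 8 sulfation genes, with the points as means and the bars as the range over the 18 libraries of each group. Sult1e1 moves from the bottom of the order in SPF WT (0.332 RPKM) to rank 4 in GF LKO mice (87.9 RPKM), while Sult2a8 leads in all 4 groups.

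The first comparison asked how loss of the liver clock changed these genes under SPF conditions. SPF LKO mice exhibited higher Sult1e1, Sult1d1 and Sult1b1 and lower Sult1a1 compared with SPF WT mice. In all, 4 of 8 genes passed the test (edgeR's quasi-likelihood test, Benjamini-Hochberg adjusted p under 0.05 over all genes), against 23.1% of the 13159 genes tested. The median log2 fold change of the 8 genes was 0.13, and that of all genes was -0.01.

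Sult1e1 in SPF WT liver ranged from 0.0463 to 2.17 CPM (median 0.333), which is 1 to 42 reads per library. In SPF LKO liver it ranged from 0.103 to 26.9 CPM (median 3.02), which is 2 to 597 reads. The groups overlapped through the libraries that stood apart: the SPF WT library labelled ZT14 replicate 3 had the top WT value, and the SPF LKO libraries labelled ZT14 replicate 2 and ZT18 replicate 1 had the 2 lowest LKO values, 0.934 and 0.103 CPM. Sult1e1 was 14.6-fold higher in SPF LKO mice (log2 fold change 3.87, SE 0.507, adjusted p 3.45e-07). Without the libraries that stood apart, the WT maximum was 0.734 CPM and the LKO minimum 1.12 CPM, and the log2 fold change was 4.44 (adjusted p 1.01e-09). This separation needs the SPF WT library labelled ZT14 replicate 3 left out too, as its 2.17 CPM exceeded 1.12 CPM. Npas2 in that library was low, as in the other SPF WT libraries of ZT14. In bulk tissue, a change in the number of cells of a type and a change in RNA per cell cannot be told apart.

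Sult1a1 ran the opposite way. In SPF WT liver it lay between 197.8 and 444.4 CPM (median 323.2), and in SPF LKO liver between 85.5 and 412.7 CPM (median 136.4). The 2 SPF LKO libraries labelled ZT14 replicate 2 and ZT18 replicate 1, at 402.2 and 412.7 CPM, were the LKO values in the upper WT range. The level was 1.95-fold lower in SPF LKO mice (log2 fold change -0.97, SE 0.172, adjusted p 5.25e-05). Without the libraries that stood apart, SPF LKO levels ended at 166.9 CPM, below every WT library, and the log2 fold change was -1.29 (adjusted p 1.48e-11). No gene of the set had groups that did not overlap with all libraries in, as for all but 0.0076% of the genes tested. Without those libraries Sult1e1 and Sult1a1 did, against 1.59% of genes.

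The neighbours of Sult1e1 changed far less. Sult1d1 lay between 125.0 and 400.6 CPM (median 232) in SPF WT and between 245.2 and 507.6 CPM (median 349.9) in SPF LKO mice. Sult1b1 lay between 33.6 and 99.7 CPM (median 48.6) in SPF WT and between 45.2 and 102.8 CPM (median 67.96) in SPF LKO mice. For both genes the groups overlapped over much of their range. Sult1d1 rose by 0.50 on the log2 scale (SE 0.130, adjusted p 0.00397) and Sult1b1 by 0.43 (SE 0.117, adjusted p 0.00653). The Sult1b1 call was lost without the libraries of replicate 2 and the Sult1d1 call without those of replicate 3, and over 12 alternatives the adjusted p ran from 4.18e-04 to 0.0811 for Sult1b1 and from 0.00127 to 0.163 for Sult1d1. Both passed without the libraries that stood apart, with log2 fold changes of 0.53 for Sult1d1 and 0.48 for Sult1b1.

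The other 4 genes did not pass the test in SPF mice. Sult2a8 was level at 1666 ± 306 CPM in SPF WT and 1608 ± 215 CPM in SPF LKO mice (mean ± SD, n = 18), with a log2 fold change of -0.05 (SE 0.075). Sult5a1 stood at 10.5 ± 4.35 and 10.4 ± 3.81 CPM, and Sult1c2 at 4.72 ± 1.55 and 5.75 ± 1.35 CPM (log2 fold change 0.29, SE 0.136, adjusted p 0.125). Sult1c2 did pass with ZT as a factor (adjusted p 0.0121) and with a replicate block (0.0178), the range over 12 alternatives being 0.0121 to 0.357. Papss2 measured 249.5 ± 44.8 CPM in SPF WT and 220.0 ± 42.7 CPM in SPF LKO mice, a log2 fold change of -0.18 (SE 0.089, adjusted p 0.143). Without the libraries that stood apart Papss2 passed the test, with a log2 fold change of -0.25 (adjusted p 0.0288). Over its 12 alternatives the Papss2 adjusted p ran from 0.0288 to 0.545.

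The second comparison asked the same question without gut microbes. GF LKO mice exhibited much higher Sult1e1 and modestly higher Sult1b1, and lower Sult1a1 and Papss2, than GF WT mice. Here too 4 of 8 genes passed edgeR's quasi-likelihood test, against 30.8% of 12662 genes. The median log2 fold change of the 8 genes was -0.01, and that of all genes was 0.01.

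Sult1e1 in GF WT liver ranged from 0.344 to 6.29 CPM (median 1.89, 6 to 118 reads). In GF LKO liver it ranged from 23.8 to 253.8 CPM (median 109.6, 459 to 4369 reads). All 18 GF LKO libraries lay above all 18 GF WT libraries. The gene was 42.9-fold higher in GF LKO mice (log2 fold change 5.42, SE 0.322, adjusted p 9.95e-17), and the log2 fold change stayed between 5.34 and 5.51 over 9 alternatives.

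Sult1a1 in GF WT liver ranged from 373.7 to 661.6 CPM (median 537.4) and in GF LKO liver from 193.6 to 340.6 CPM (median 256.4). Again no library of one group reached the other. Sult1a1 was 2.06-fold lower in GF LKO mice (log2 fold change -1.04, SE 0.081, adjusted p 1.90e-13). Sult1e1 and Sult1a1 were the 2 genes of the set whose GF groups did not overlap, against 1.63% of the genes tested (1.69% without the GF WT library that stood apart).

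Papss2 ranged from 206.4 to 483.4 CPM (median 315.5) in GF WT and from 164.9 to 255.5 CPM (median 206.5) in GF LKO mice. The groups overlapped between 206.4 and 255.5 CPM. Papss2 was 1.48-fold lower in GF LKO mice (log2 fold change -0.56, SE 0.089, adjusted p 3.47e-06). Sult1b1 was 80.1 ± 14.9 CPM in GF WT and 100.5 ± 16.96 CPM in GF LKO mice (mean ± SD, n = 18), a rise of 0.34 on the log2 scale (SE 0.084, adjusted p 0.00198) that was lost without the libraries of replicate 2 (adjusted p 0.0869, the highest of its 9 alternatives, the lowest being 5.19e-04). Sult1d1, at 338.3 ± 138 and 390.0 ± 73.8 CPM, did not pass (log2 fold change 0.21, SE 0.131, adjusted p 0.231). Sult2a8, Sult1c2 and Sult5a1 had log2 fold changes of -0.01, -0.01 and -0.29, with adjusted p-values of 0.893, 0.978 and 0.357.

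**Figure D2:**
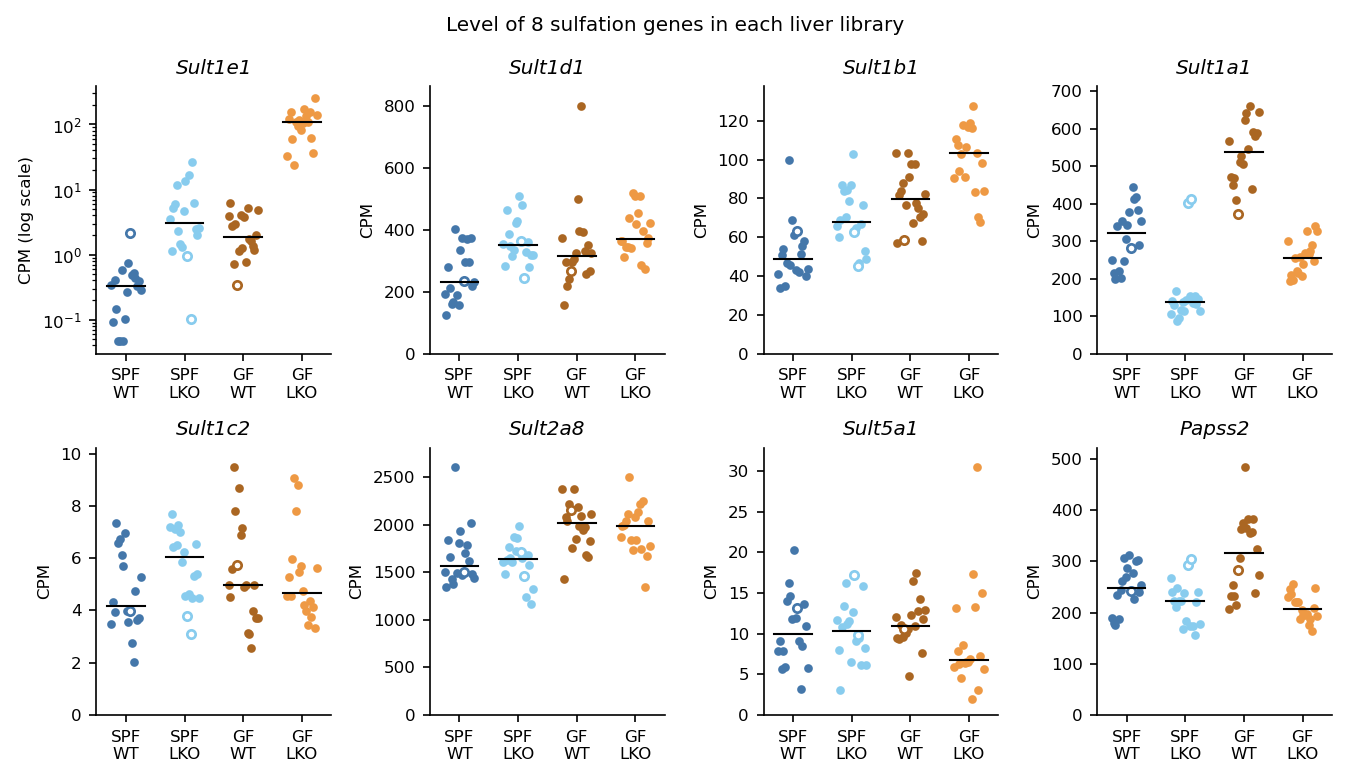
CPM of 8 sulfation genes in each of the 72 libraries, by group (linear axes from 0, except the log axis of Sult1e1), with black bars as group medians and hollow points as the 4 libraries that stood apart. Sult1e1 in GF LKO mice (23.8 to 253.8 CPM) lies above GF WT mice throughout, and the 2 hollow SPF LKO points sit at WT-like levels of Sult1a1 (402.2 and 412.7 CPM).

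Of 8 hepatocyte markers, 2 were lower in SPF LKO mice (Alb, log2 fold change -0.98, and Fabp1, -0.75), against 23.1% of all genes called in either direction. In GF LKO mice 3 of 8 were lower (Alb -1.70, Fabp1 -1.18 and Ttr -0.21), against 30.8%. The summed level of the 8 ranged from 95550 to 148700 CPM in SPF WT, from 53860 to 138800 CPM in SPF LKO, from 126400 to 188000 CPM in GF WT and from 62340 to 86400 CPM in GF LKO mice. Most of that shift was Alb: the other 7 markers together had medians of 36110, 32210, 46510 and 40380 CPM in the same order of groups. Of 5 cholangiocyte markers tested, Sox9 was higher in SPF LKO mice (log2 fold change 1.17) and Sox9 and Spp1 were higher in GF LKO mice (0.78 and 1.18). Their sum over 6 markers ranged from 33.7 to 99.0 CPM in SPF WT, from 31.3 to 136.1 CPM in SPF LKO, from 27.4 to 58.7 CPM in GF WT and from 45.5 to 164.5 CPM in GF LKO mice, whereas the defining markers Krt7, Krt19 and Epcam had means between 0.679 and 1.68 CPM in every group. Of 6 Kupffer cell markers, 4 were lower in SPF LKO mice and 2 in GF LKO mice. Of 6 liver endothelial markers, 1 was lower in SPF LKO mice and 1 higher in GF LKO mice. Among 6 hepatic stellate cell markers, 2 were higher and 1 lower in SPF LKO mice, and 1 was higher in GF LKO mice. The part of cell composition in the sulfation genes was not tested.

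The comparison by microbial status found 5 of 8 genes higher in GF than in SPF mice in WT and 4 of 8 in LKO mice. None was lower in either genotype. Of all genes, 31.8% of 12776 were called in either direction and 14.2% called higher in WT mice, and 36.4% of 13010 were called and 18.1% called higher in LKO mice. The median log2 difference of the 8 genes was 0.35 in WT and 0.19 in LKO mice, beside medians of -0.02 for all genes in both. These comparisons use the same 4 groups as the genotype comparisons, so their values are not independent of those above. Of the 8 hepatocyte markers, 5 were also higher in GF than in SPF mice in each genotype and 1 was lower in LKO mice, and their part in the result was not tested.

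Sult1e1 was 6.09-fold higher in GF WT than in SPF WT mice (log2 fold change 2.61, SE 0.380, adjusted p 3.53e-06). In LKO mice it was 18.1-fold higher in GF (4.18, SE 0.411, adjusted p 8.34e-10). Without the libraries that stood apart the log2 fold changes were 3.10 and 4.03. No gene of the set had groups that did not overlap in these comparisons, against 0.00783% of genes in WT and 0.208% in LKO mice, nor did any in WT mice without the libraries that stood apart (0.227%). For Sult1e1 in LKO mice the overlap was small: the top SPF LKO value of 26.9 CPM exceeded the lowest GF LKO value of 23.8 CPM.

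Sult1a1 was higher in GF mice by 0.75 on the log2 scale in WT (SE 0.101, adjusted p 1.13e-06) and by 0.68 in LKO mice (SE 0.160, adjusted p 0.00110). Without the libraries that stood apart the LKO difference was 0.99, and every GF LKO library lay above every SPF LKO library, as for 0.261% of genes. The LKO call was lost without the libraries of replicate 3, and its adjusted p ran from 8.92e-11 to 0.0725 over 11 alternatives. Sult1b1 was higher in GF mice by 0.61 in WT (SE 0.108, adjusted p 5.33e-05) and by 0.53 in LKO mice (SE 0.095, adjusted p 4.76e-05). Sult2a8 had smaller differences, 0.23 in WT (SE 0.073, adjusted p 0.0140) and 0.28 in LKO mice (SE 0.066, adjusted p 0.00124), the latter call being lost without the libraries of replicate 2 (adjusted p from 2.08e-04 to 0.0862 over 11 alternatives).

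Papss2 was higher in GF than in SPF mice in WT (log2 fold change 0.31, SE 0.099, adjusted p 0.0176), and its LKO difference of -0.07 (SE 0.076, adjusted p 0.524) did not pass. The WT calls of Papss2 and Sult2a8 were each lost without the libraries of replicate 2 and without those of replicate 3. Their adjusted p-values ran from 2.40e-04 to 0.133 and from 0.00239 to 0.209 over 11 alternatives. Sult1d1 (0.38 in WT, adjusted p 0.0649, and 0.10 in LKO), Sult1c2 (0.16 and -0.13) and Sult5a1 (0.09 and -0.17) did not pass in either genotype. The WT difference of Sult1d1 did pass with DESeq2 (0.40, adjusted p 0.0419), with ZT as a factor (adjusted p 0.0221) and with the replicate block (0.00941), in a range of 0.00941 to 0.421 over 11 alternatives.

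**Figure D3:**
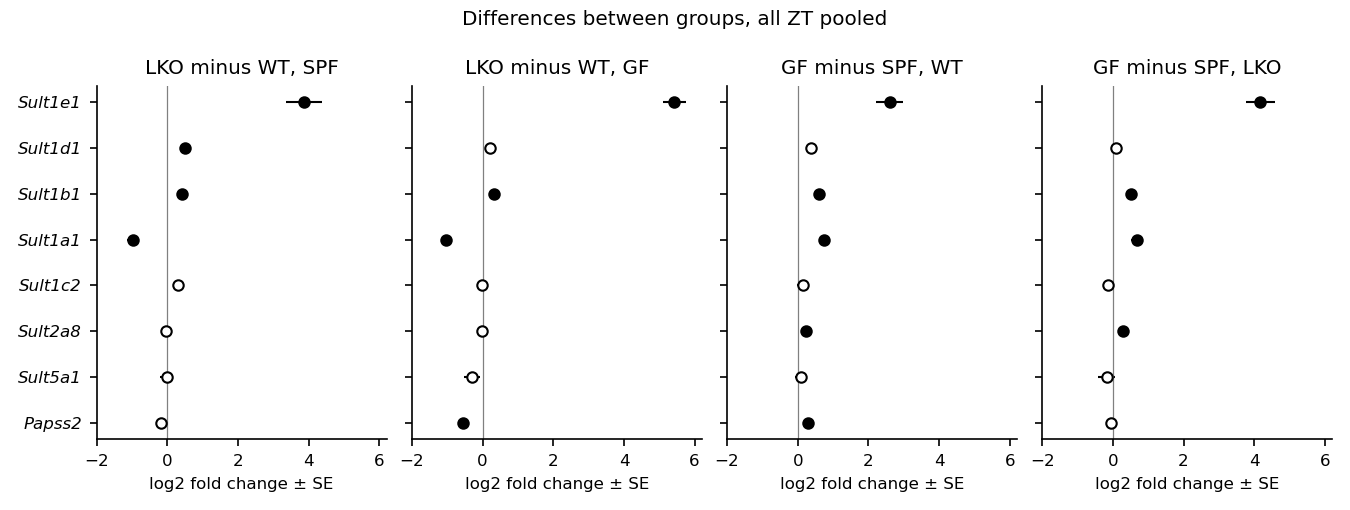
log2 fold change ± SE of 8 sulfation genes in 4 comparisons with all ZT pooled (36 libraries each), filled where the adjusted p was under 0.05 and hollow otherwise. Sult1e1 is filled in all 4 panels, from 2.61 (GF minus SPF, WT) to 5.42 (LKO minus WT, GF), and Sult1a1 is at -0.97 and -1.04 in the genotype panels.

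Whether the genotype difference itself depended on microbial status was tested as an interaction over all 72 libraries. No gene of the set passed, against 0.438% of 13484 genes, although 2 of the 8 had an unadjusted p under 0.05 in edgeR's quasi-likelihood test, and DESeq2 called 0. For Sult1e1 the genotype difference was larger in GF than in SPF mice by 1.54 on the log2 scale (SE 0.667, p 0.0237, adjusted p 0.606), which fell to 0.90 (adjusted p 0.976) without the libraries that stood apart. Over 13 alternatives its value ran from 0.90 to 1.82 and its adjusted p from 0.335 to 0.999. For Papss2 the difference was -0.39 (SE 0.128, p 0.00308, adjusted p 0.244), with values from -0.40 to -0.33 over the same alternatives. Sult1a1 had an interaction of -0.09 (SE 0.193), which turned to 0.21 without the libraries that stood apart, neither passing.

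The genotype comparison was then made within each time of day, with 3 libraries a group. Sult1e1 in GF mice was higher in LKO and passed the test at all 6 times. That the 3 LKO libraries lay above the 3 WT libraries at each time follows from the pooled groups, which did not overlap. At ZT6, the GF WT libraries held 0.344, 0.720 and 3.00 CPM and the GF LKO libraries 23.8, 59.7 and 109.0 CPM. At ZT14, the GF WT libraries held 0.758, 3.72 and 5.28 CPM against 106.2, 135.3 and 171.3 CPM in GF LKO mice. At ZT22, the GF WT libraries held 1.16, 2.02 and 4.81 CPM against 36.8, 139.5 and 253.8 CPM. The log2 fold change ran from 4.58 at ZT2 (SE 0.571, adjusted p 2.75e-04) to 6.13 at ZT18 (SE 0.993, adjusted p 0.00554), and the spread between GF LKO libraries of the same time was wide.

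In SPF mice the log2 fold change of Sult1e1 was 3.56 at ZT2 (adjusted p 0.0307), 6.28 at ZT6 (adjusted p 0.00490) and 3.41 at ZT10 (adjusted p 0.0123). The ZT6 call held in all 17 alternatives, and those at ZT2 and ZT10 were lost in 6 and 4 of 17. At ZT6, the SPF WT libraries held 0.0471, 0.0472 and 0.145 CPM, which is 1 to 3 reads, and the SPF LKO libraries 2.28, 5.97 and 11.7 CPM, so the fold at this time rests on very few WT reads. At ZT14 and ZT18 the values were 3.27 and 4.53, at ZT22 2.77, and none of these passed. The 3 LKO libraries lay above the 3 WT libraries at 4 of 6 times, with the exceptions ZT14 and ZT18, each of which held a library that stood apart. How many of all genes separate 3 against 3 libraries in this way was not counted.

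Sult1a1 in GF mice had 3 LKO libraries below 3 WT libraries at all 6 times, which again follows from the pooled groups. Its log2 fold changes ran from -0.89 at ZT6 (SE 0.247) to -1.19 at ZT10 (SE 0.136). It passed the test at ZT2, ZT6, ZT10 and ZT22, and had adjusted p-values of 0.0585 at ZT14 and 0.0724 at ZT18. The ZT6 call was lost in 5 of 17 alternatives (adjusted p up to 0.122), and Sult1a1 passed at ZT14 in 7 alternatives and at ZT18 in 4, among them those without the SPF LKO library that stood apart at each time. In SPF mice it fell by 0.82 at ZT2, by 1.14 at ZT6, by 1.31 at ZT10 and by 1.40 at ZT22 on the log2 scale, each passing the test. The calls at ZT2 and ZT6 were lost in 2 and 3 of 17 alternatives (adjusted p up to 0.0582 and 0.0744). At ZT18, the SPF WT libraries held 412.1, 416.9 and 444.4 CPM and the SPF LKO libraries 133.9, 154.6 and 412.7 CPM, the last being the library that stood apart.

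Counted over the 8 genes, 4 passed in SPF mice at ZT2 (Sult1a1 lower, Sult1c2, Sult1e1 and Papss2 higher), against 6.89% of all genes. At ZT6 there were 4 (Sult1a1 lower, Sult1b1, Sult1d1 and Sult1e1 higher, against 7.26%), at ZT10 2 (Sult1a1 lower, Sult1e1 higher, against 11.9%) and at ZT22 1 (Sult1a1 lower, against 3.31%). At ZT14 none passed, and neither did any of the 13317 genes tested. At ZT18 none passed, against 0.015% of genes. At each of these times 2 of the 8 had an unadjusted p under 0.05 in edgeR's test, and DESeq2 called 0 and 1 of them. When replicate 2 of SPF LKO was left out at ZT14, Sult1a1 (-1.17), Sult1e1 (3.81) and Papss2 (-0.66) passed there. When replicate 1 of SPF LKO was left out at ZT18, Sult1a1 (-1.54), Sult1e1 (5.11) and Papss2 (-0.69) passed.

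In GF mice Sult1a1 and Sult1e1 passed at ZT2 (against 4.21% of genes) and at ZT22 (4.44%), joined by Sult1d1 at ZT6 (11.7%, a call lost in 2 of 17 alternatives) and by Papss2 at ZT10 (13.1%). At ZT14 (6.1%) and ZT18 (8.43%) the genes that passed were Sult1e1 and Papss2.

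**Figure D4:**
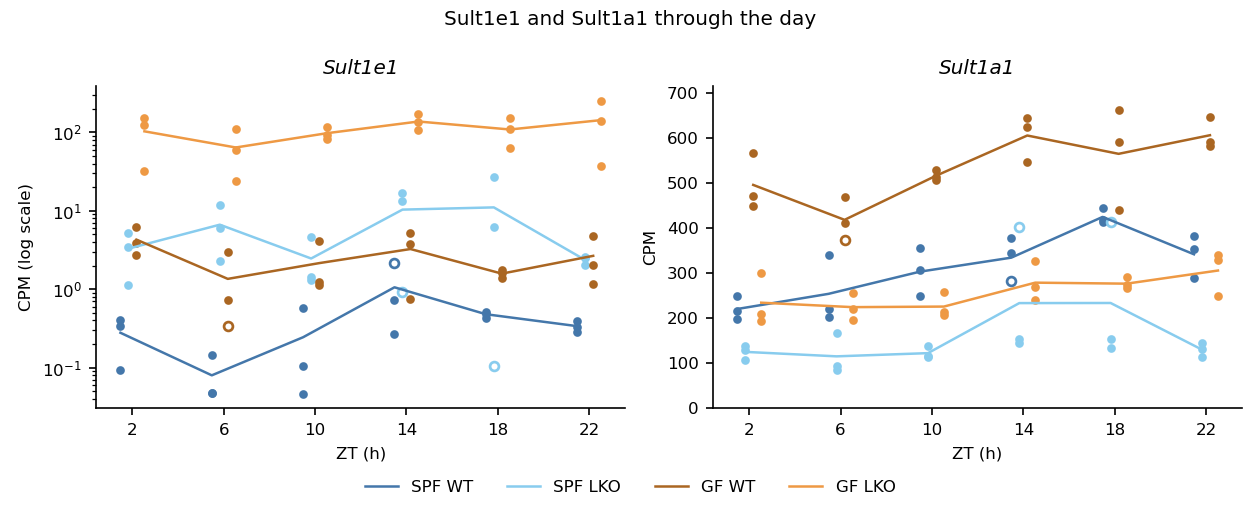
CPM of Sult1e1 (log axis) and Sult1a1 (linear axis from 0) at 6 ZT, with 3 libraries per group and time as points, lines through their means and hollow points for the 4 libraries that stood apart. GF LKO libraries of Sult1e1 (23.8 to 253.8 CPM) stay above all other libraries but 1, and GF LKO libraries of Sult1a1 stay below GF WT libraries at each ZT.

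Rhythms were tested with a cosine and sine term of a 24 h period within each group, where the amplitude is the log2 distance from the mean to the peak. Of the genes tested, 3 of 7 passed in SPF WT (against 15.5% of all genes), 4 of 8 in SPF LKO (22.2%), 4 of 8 in GF WT (27.7%) and 3 of 8 in GF LKO mice (36%). Sult1e1 was too low for the rhythm test in SPF WT, and its amplitudes of 0.73, 0.23 and 0.42 in SPF LKO, GF WT and GF LKO mice did not pass.

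Papss2 was the gene whose rhythm differed between genotypes. In GF WT liver it held 206.4, 232.5 and 253.2 CPM at ZT2 and 365.1, 382.4 and 483.4 CPM at ZT14. In GF LKO liver it held 230.9, 235.7 and 246.5 CPM at ZT2 and 195.6, 196.0 and 198.0 CPM at ZT14. The genotypes thus overlapped at ZT2 and were far apart at ZT14, when Papss2 was 2.08-fold lower in GF LKO mice (log2 fold change -1.06, SE 0.189, adjusted p 0.0129). That call was lost without GF WT replicate 1 or GF LKO replicate 1 or 2 (adjusted p from 4.06e-08 to 0.0538 over 18 alternatives). The fitted peak was at 14.6 h with amplitude 0.43 in GF WT (adjusted p 3.02e-05) and at 3.8 h with amplitude 0.19 in GF LKO mice (adjusted p 0.00301). The difference curve had an amplitude of 0.62 (adjusted p 1.68e-07), and it was the 1 of 8 genes to pass, against 6.04% of 13373 genes.

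In SPF WT liver Papss2 held 176.6, 179.1 and 189.5 CPM at ZT2 and 241.8, 286.0 and 313.2 CPM at ZT14, with a fitted peak at 14.8 h (amplitude 0.27, adjusted p 0.0238), a call that was lost without the libraries of replicate 1, 2 or 3 (adjusted p from 0.0120 to 0.242 over 9 alternatives). Over all genes, this rhythm test called 2077 with all libraries, 759 without replicate 1 and 521 without replicate 2. In SPF LKO liver it held 222.0, 240.3 and 267.7 CPM at ZT2 and 173.8, 183.1 and 293.3 CPM at ZT14, the last being the library that stood apart. LKO was thus above WT at ZT2 (log2 fold change 0.42, SE 0.104, adjusted p 0.0285), a call that was lost in 6 of 17 alternatives (adjusted p from 0.00182 to 0.138), among them the 1 fit on all libraries. The difference of the SPF rhythms had an amplitude of 0.35 (adjusted p 0.257), and 0 of 8 genes passed, against 1.06% of 13952 genes, with 2 at an unadjusted p under 0.05 and 0 by limma. Without the libraries that stood apart Papss2 passed (amplitude 0.56, adjusted p 7.79e-04), and so did its rhythm within SPF LKO mice (amplitude 0.26, adjusted p 0.0169).

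Sult1c2 was rhythmic in all 4 groups and had no detectable genotype difference of rhythm. Its fitted peaks were at 7.2 h in SPF WT, 4.6 h in SPF LKO, 7.2 h in GF WT and 7.1 h in GF LKO mice, with amplitudes of 0.50, 0.41, 0.63 and 0.48. Both GF calls held in every alternative run, and the SPF calls were lost without the libraries of replicate 1 or 2 in WT and of replicate 2 in LKO mice (adjusted p up to 0.146 and 0.0543). In GF WT liver it held 5.73, 7.81 and 9.48 CPM at ZT6 and 2.56, 3.088 and 3.997 CPM at ZT18, on 40 to 162 reads per library. In GF LKO liver it held 5.97, 7.80 and 9.07 CPM at ZT6 and 3.43, 3.77 and 4.38 CPM at ZT18. The difference curves had an amplitude of 0.30 for SPF mice, with an adjusted p of 0.414, and of 0.15 for GF mice, with an adjusted p of 0.764.

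Sult1a1 passed the rhythm test in all 4 groups, with peaks at 16.8 h, 16.4 h, 17.7 h and 19 h and amplitudes of 0.40, 0.56, 0.23 and 0.22 in SPF WT mice, SPF LKO mice, GF WT mice and GF LKO mice. The SPF LKO rhythm rested on the 2 libraries that stood apart there: without them its amplitude was 0.17 (adjusted p 0.274). The Sult1a1 call was also lost in each of the 4 groups when the libraries of some replicate number were left out, with adjusted p up to 0.179, 0.274, 0.168 and 0.298 over all alternatives. Sult1b1 (peak 8.8 h, amplitude 0.32) and Sult2a8 (peak 9.9 h, amplitude 0.20) passed in SPF LKO mice, and Sult1d1 passed in GF WT mice (peak 15.2 h, amplitude 0.45), with adjusted p up to 0.154, 0.164 and 0.148 when libraries were left out or ZT means used. In SPF WT mice Sult1d1 did not pass (amplitude 0.44, adjusted p 0.0552). It did pass there in 5 alternatives, among them that without the library that stood apart (amplitude 0.47, adjusted p 0.0386). Sult5a1 passed in no group.

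**Figure D5:**
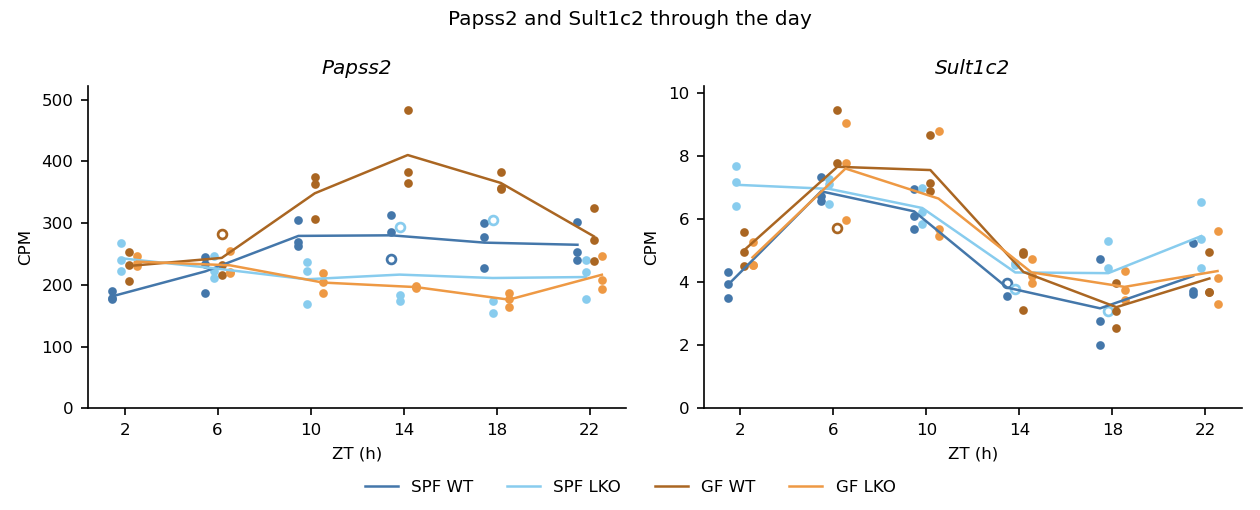
CPM of Papss2 and Sult1c2 (linear axes from 0) at 6 ZT, with 3 libraries per group and time as points, lines through their means and hollow points for the 4 libraries that stood apart. GF WT Papss2 climbs from a mean of 230.7 CPM at ZT2 to 410.3 CPM at ZT14 while GF LKO goes from 237.7 to 196.5 CPM, and Sult1c2 is high at ZT6 and low at ZT18 in both GF groups.

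The other genes of the sulfation pathway were read from lists fixed by function, against 23.1% of all genes called in SPF and 30.8% in GF mice. These fits held all libraries, also those that stood apart. Of 14 further cytosolic sulfotransferases, 1 was expressed enough to test, Sult2a7, which was higher in SPF LKO mice (log2 fold change 0.54, adjusted p 0.0432) and had a value of 0.09 in GF LKO mice (adjusted p 0.639). The interaction of this gene was -0.46 and did not pass (adjusted p 0.809). Of 7 genes of PAPS supply, transport and breakdown, none passed in SPF mice and 2 passed in GF mice, the Golgi PAPS transporter Slc35b3 (0.24) and the phosphatase Impad1 (-0.14). Papss1 did not pass in either, with log2 fold changes of 0.18 (SPF, adjusted p 0.162) and 0.15 (GF, adjusted p 0.241). A list of cysteine and sulfide breakdown was read too, where not every gene leads to sulfate and Csad does not. Of 8 such genes tested, 4 were higher in SPF LKO mice, led by Csad (0.65) and Got1 (0.58). In GF LKO mice 2 were higher, Got1 (0.45) and the cysteine dioxygenase Cdo1 (0.28), and 2 were lower, Sqor (-0.26) and Mpst (-0.21).

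Among the Golgi sulfotransferases, which act on proteins and glycans, 3 of 14 tested passed in SPF mice, the tyrosylprotein sulfotransferase Tpst2 (0.38), Hs2st1 (0.14) and Hs3st3b1 (-0.17). In GF mice 4 of 13 passed, Tpst2 (0.32), Hs2st1 (0.17), Hs3st3b1 (-0.28) and Tpst1 (-0.19). Both shares are close to those of all genes. Sulfatases remove sulfate. Of 12 tested, 4 were higher and 2 lower in SPF LKO mice, with Arsg (0.45) and Sgsh (0.29) up and the lysosomal arylsulfatase Arsa (-1.17) and the heparan sulfate endosulfatase Sulf2 (-0.56) down. In GF LKO mice 2 were higher and 3 lower, with Arsg (0.82) and Sumf1 (0.13) up and Arsa (-1.21) and Sulf2 (-0.85) down.

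Of 14 receptors and factors known to act on sulfotransferase genes, 4 were lower in SPF LKO mice, and the estrogen receptor Esr1 (-0.69) and the fatty acid receptor Ppara (-0.67) had the largest decreases. In GF LKO mice Stat5b, a signal transducer of growth hormone, was higher (0.54), and 4 were lower, led by Esr1 (-1.66) and Ppara (-0.80). Since several sulfotransferases are sex-biased, sex-biased liver genes were read beside them. Of female-biased genes, 2 of 5 tested passed in SPF mice, Acot3 (-2.01) and Cyp17a1 (-1.91), and 5 of 6 in GF mice, with Cyp2c40 (1.73) and Cyp2c69 (1.14) higher and Acot3 (-5.12) and Cyp2b9 (-3.89) lower among them. Of 15 male-biased genes, 5 were higher and 4 lower in both SPF and GF LKO mice. Elovl3 (1.47) and Cyp7b1 (1.03) led those higher in SPF mice, and Susd4 (-0.95) and Serpina1e (-0.89) those lower. In GF mice Cyp7b1 (1.33) and Elovl3 (1.21) were higher and Cyp4a12a (-1.07) and Serpina1e (-0.75) lower. The calls of the female-biased list went in both directions in GF mice and were lower in SPF mice, and those of the male-biased list went in both directions in both.

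The genes most like each member in log2 CPM were found over the 24 means of group and time, which share libraries and groups with the comparisons above, so the coefficients are descriptions. Nearest to Sult1e1 were Aadat (Pearson r 0.961), Apof (0.957) and Ctsl (0.941). Nearest to Sult1a1 were Ahcy (0.967), Ddt (0.947) and Cyp17a1 (0.946), and nearest to Papss2 were Prnp (0.914), Opa1 (0.851) and Fhad1 (0.850). Sult2a8 was nearest to Kmo (0.937), Hibch (0.917) and Sec62 (0.915). Sult1b1 was nearest to Ascc1 (0.931), Ppp3cc (0.922) and Lrrc40 (0.920), and Sult1d1 to Pus7 (0.844), Ablim3 (0.820) and Atic (0.815). Sult1c2 was nearest to Dcaf8 (0.866), Sntg2 (0.862) and Abtb1 (0.858), whereas for Sult5a1 the nearest, Mief2 (0.704), Spg7 (0.685) and Mrpl18 (0.670), were less alike. None of the members was among the 3 nearest of another, also not among the 3 neighbours on chromosome 5.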

How the data were processed

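Livers were sequenced as single-end reads from stranded mRNA libraries. The deposited table holds whole-number read counts per Ensembl gene, which the authors made with STAR 2.6.1b on mm10 and featureCounts 2.0.0 without use of strand, and no normalization. All 72 count columns matched a sample by label and 0 columns were left unused. Gene symbols came from a gene name table, which matched 55394 of 55573 IDs. CPM (on TMM-scaled totals) and RPKM (by the exonic length in the table) were computed from the counts.

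Differences were tested with edgeR 4.0.16 (R 4.3.3): filterByExpr, TMM, glmQLFit and glmQLFTest, with Benjamini-Hochberg adjustment over all genes and a threshold of 0.05. The study used DESeq2, run here (1.42.0) as an alternative, with limma 3.58.1 on variance-stabilized values as an alternative for rhythms. The 4 pooled comparisons used the 36 libraries of the 2 groups, the interaction all 72, the ZT comparisons the 12 libraries of a ZT, and rhythms the 18 libraries of a group (36 for their difference) with cosine and sine terms of 24 h. The procedure was tested on simulated data. Totals of 17369927 to 22076113 reads limit precision chiefly for Sult1e1 in SPF WT mice. No 2 libraries held equal counts.

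Same-numbered libraries of 2 groups deviated together with a correlation over 0.1 in 5, 2, 5 and 3 of 18 pairs in the 4 comparisons, and no label says that a number marks a shared animal or batch, so the numbers were not taken as pairs. All members with a mean CPM of at least 0.5 are named throughout, together with, from each other list, up to 2 genes with the largest increase and up to 2 with the largest decrease called in SPF and in GF mice, Papss1, Arntl, and the 3 genes most correlated with each member (log2 CPM with a prior count of 2, genes with a mean of at least 1). Npas2 was added after its values had been seen. The result of 1 gene of the list of receptors and factors is not reported here. The members, the lists and the libraries to leave out were chosen with earlier results of these data known. Promoter windows are from RefSeq (GRCm38); all 9 listed genes matched, with 12 windows. Genomic positions of genes are from the deposited table and annotation of the same build. Python 3.11.15, Biopython 1.88 and matplotlib 3.10.9 were used for sequences and figures.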

Additional observations from a re-analysis of the deposited data

Results flagged for a closer look

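The rhythm of Papss2 differed between genotypes in GF mice: the difference curve had a log2 amplitude of 0.623 (edgeR's quasi-likelihood test of the genotype-by-time terms, adjusted p 1.68e-07), and over 9 alternatives it ran from 0.551 to 0.686 with adjusted p up to 8.51e-04. It was singled out because this difference between groups was tested directly and passed.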

How the results depend on the processing

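The calls of Sult1e1 in the 4 pooled comparisons, of Sult1a1 in both genotype comparisons, of Papss2 in GF mice and of the Papss2 rhythm difference in GF mice held under every alternative run for them. Low counts limit Sult1e1 in SPF WT mice (1 to 42 reads). A model with 1 fit on all 72 libraries gave 2, 1 and 1 members called in SPF mice at ZT2, ZT10 and ZT18. Without a filter on low counts, SPF mice had 5 called at ZT10, 1 at ZT14, 2 at both ZT18 and ZT22, GF mice had 5 at ZT6 and 4 at ZT14, and 7 rhythms were called in SPF WT and 6 in GF LKO mice. DESeq2 called 1 at ZT18 and 2 at ZT22 in SPF mice, and rhythm tests on the 6 ZT means called 1 in SPF LKO mice. Without both libraries that stood apart at ZT14, an alternative added after seeing the data, 3 were called in SPF mice. Without the SPF libraries that stood apart, left out together, 1 SPF rhythm difference was called. The causes were not tested.

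With the replicate block, 5 members were called in SPF genotype, 5 in GF genotype, 6 in WT microbial, 4 in LKO microbial and 0 in interaction tests, Sult1c2 (SPF) and Sult1d1 (GF and WT microbial) being gained. The pairing rests on the number alone. Values that never passed and changed sign were Sult5a1 in SPF mice (0.009 with ZT as a factor), Sult1c2 in GF mice (0.011 with ZT as a factor, 0.002 with the block), the Sult1a1 interaction (0.011 with the block, 0.207 without the libraries that stood apart) and the Papss2 microbial difference in LKO mice (0 without them).

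Leaving out replicates or single libraries, uncalled values that changed sign ran from -0.088 to 0.011 (Sult2a8, SPF genotype), from -0.16 to 0.098 (Sult5a1, SPF genotype), from -0.064 to 0.085 (Sult1c2, GF genotype), from -0.051 to 0.028 (Sult2a8, GF genotype), from -0.028 to 0.197 (Sult5a1, WT microbial), from -0.334 to 0.068 (Sult5a1, LKO microbial) and from -0.22 to 0.065 (Sult1a1, interaction). The number of members called ran from 3 to 5 in WT microbial tests (3 without replicate 2 or 3). For rhythms it ran from 0 to 4 in SPF WT mice (0 without replicate 2, 4 without the library that stood apart). In SPF LKO mice it ran from 0 to 4 (0 without replicate 2, 4 without the libraries that stood apart). In GF WT mice it ran from 2 to 4 (2 without replicate 1, 4 without the library that stood apart). In SPF mice it ran from 1 to 5 at ZT2 (1 without SPF LKO replicate 1, 2 without SPF WT replicate 1, 2 or 3), from 1 to 3 at ZT10 (1 without SPF WT replicate 2 or 3), from 0 to 3 at ZT14 (3 without SPF LKO replicate 2), from 0 to 3 at ZT18 (3 without SPF LKO replicate 1) and from 1 to 2 at ZT22 (2 without GF LKO replicate 1, since all groups share the spread). In GF mice it ran from 1 to 3 at ZT6 (1 without GF LKO replicate 3) and from 1 to 3 at ZT14 (1 without GF WT replicate 1 or GF LKO replicate 1 or 2). Leaving out a replicate number lowered the calls over all genes too. In WT microbial tests these fell from 4069 to 1674 without replicate 2 and to 2608 without replicate 3. For SPF LKO rhythms they fell from 3004 to 889, 707 and 532 without replicate 1, 2 and 3.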
